A study of Mus musculus with 20 samples.

Results

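The miRNAs described here are miR-143 and miR-145, which were read by the 2 probes of the array whose name in the normalized table is mmu-miR-143 or mmu-miR-145, out of 655 probes in all. The array held 1 more probe for these hairpins, mmu-miR-145*, for the other strand of miR-145, and none named for the other strand of miR-143. The array annotation placed all 3 on chromosome 18.

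miR-143 and miR-145 are cut from hairpins that lie next to each other and are made as a common primary transcript. They are known above all from vascular and visceral smooth muscle, where they are tied to the contractile state of the cells, and in the gut they are found in the muscle layers, the myofibroblasts and fibroblasts of the lamina propria and other mesenchymal cells, while epithelial cells are known to hold little of them. The samples were labelled as ileum epithelial cells, so the data allow their level and its change along the crypt-villus axis to be described in an epithelial preparation. Which cells of a fraction carried them was not measured.

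Total RNA was measured on Cy3-labelled Illumina bead arrays from wild type C57BL/6J male mice aged 4 months. There were 20 arrays, 4 for each of 5 fractions of ileum, which carried no other treatment or allele. The fractions were released from the opened ileum one after the other in a citrate chelating buffer that loosens the epithelium. The first supernatant was V0, the tip of the villus, then V1, V2 and V3 further down, and C1, the crypt, came last. No cells were sorted, so a fraction may hold whatever the buffer and shaking released. The design text speaks of 4 mice, but the labels do not say which arrays share a mouse, and replicate numbers only name the arrays. P-values therefore measure the spread between arrays.

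Beside the members stand 8 probes of miRNAs by which epithelium is known, used here as the reference for the level of the members on the same array. The miR-200 family restrains the change of epithelial into mesenchymal cells, and miR-192, miR-194 and miR-215 are miRNAs of the enterocyte. Their mature sequences show how the reference falls into groups that share a seed, the bases 2 to 8 that pair with targets, in capitals. They come from RefSeq (GRCm38.p6), where all 8 probes were matched.
miR-200b-3p: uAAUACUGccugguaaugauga
miR-200c-3p: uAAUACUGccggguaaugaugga
miR-429-3p: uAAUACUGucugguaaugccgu
miR-200a-3p: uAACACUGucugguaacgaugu
miR-141-3p: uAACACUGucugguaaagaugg
miR-192-5p: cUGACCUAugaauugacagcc
miR-215-5p: aUGACCUAugauuugacagac
miR-194-5p: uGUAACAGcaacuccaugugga
The first 3 share the seed AAUACUG and the next 2 the seed AACACUG. miR-192-5p and miR-215-5p share UGACCUA, and miR-194-5p alone has GUAACAG. On the minus strand, miR-200b-3p lies at chr4:156055685-156055706, miR-200a-3p at chr4:156054911-156054932 and miR-429-3p at chr4:156053916-156053937, close to each other, and miR-200c-3p lies at chr6:124718324-124718346 beside miR-141-3p at chr6:124717917-124717938. On the plus strand, miR-192-5p lies at chr19:6264857-6264877 and miR-215-5p at chr1:185313610-185313630, each beside a copy of miR-194-5p (chr19:6264658-6264679 and chr1:185313325-185313346). These reference miRNAs thus come from 4 places in the genome, none of them on the chromosome of the members.

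A probe counted as detected at a detection p of at most 0.01. C1 arrays detected 285 to 372 probes, V3 arrays 258 to 477, V2 arrays 344 to 471, V1 arrays 388 to 481 and V0 arrays 326 to 466. V3 replicate 4 (258 probes) and C1 replicate 4 (285 probes) had the fewest of their fractions, and their mean rank correlation with the other arrays of the same fraction was 0.456 and 0.470, the lowest of the 20. Results that rest on these 2 arrays are given with and without them. This choice was made after seeing that both members were low on V3 replicate 4 and miR-143 on C1 replicate 4. The arrays lay on 4 slides. V0, V1 and V2 each had 2 arrays on slide 1 and 2 on slide 2, V3 had 2 on slide 2 and 2 on slide 3, and C1 had 2 on slide 3 and 1 each on slides 2 and 4. C1 replicate 4 was the only array on slide 4, so for it slide and array cannot be told apart.

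Both miRNAs gave bright signals in all 5 fractions. miR-145 was detected on 20 of 20 arrays, with a median place of 34 among the 655 probes of an array and places between 9 and 232. miR-143 was detected on 18 of 20 arrays, with a median place of 80.5 and places between 7 and 482. The median places of the 8 epithelial probes ranged from 1 for miR-200b to 114.5 for miR-141. The brightness of different probes is not a measure of how many molecules of each miRNA were present, so these places describe the probes. The normalized signal of the brightest probe was 15.91 on the log2 scale on every array, and miR-145 lay close to it, which leaves that probe little room to rise. The same held for miR-143 on V0 replicates 2 and 3. The SD over the 20 arrays was 1.63 for miR-143 and 1.04 for miR-145, with a median of 1.16 over the probes that entered the trend test.

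miR-143 was brightest at the villus tip. Its normalized log2 signal in V0 was 14.51, 15.77, 15.80 and 15.30 in replicates 1 to 4. In V1 it was 14.39, 14.85, 13.71 and 13.74. In V2 it was 13.66, 14.12, 13.26 and 14.12. All arrays of V0 except replicate 1 were brighter than every array of the other fractions. In V3 it was 14.05, 13.68, 13.83 and 9.09, and in C1 it was 13.40, 14.51, 13.78 and 9.90. The last array of each of these fractions was far below its neighbours and did not detect miR-143, with detection p of 0.398 in V3 replicate 4 and 0.019 in C1 replicate 4. V0 replicate 1 and C1 replicate 2 held the same normalized signal, 23377.8 units, since miR-143 had place 61 on both arrays. Before normalization their signals were 17934 and 20024 units.

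The order of the mean log2 signals of miR-143 was V0, 15.34 ± 0.60 (SD, n = 4), V1, 14.17 ± 0.55, V2, 13.79 ± 0.41, C1, 12.90 ± 2.05, and V3, 12.66 ± 2.39. The arrays of all neighbours in this order overlapped, and no pair passed the test, with C1 and V3 not tested against each other. Without replicate 4, C1 was at 13.90 ± 0.57 and V3 at 13.85 ± 0.19 (SD, n = 3), which put both within the values of V2. The 4 lower fractions then lay within 0.38 of each other and V0 stood above them.

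miR-145 was more even. Its normalized log2 signal in V0 was 15.48, 15.62, 15.77 and 15.72. In V1 it was 14.82, 15.36, 15.38 and 15.36. In V2 it was 14.73, 14.85, 15.06 and 15.40. V0 did not overlap either of these fractions. In V3 miR-145 was at 14.71, 14.59, 15.14 and 10.84, and in C1 at 14.68, 15.59, 15.52 and 15.16. V3 replicate 4 was again far below the others, while C1 replicate 4, where miR-143 was not detected, had miR-145 within the range of its fraction. Before normalization that C1 array read 326 units for miR-143 and 23525 units for miR-145.

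The mean log2 signals of miR-145 were 15.65 ± 0.13 in V0, 15.24 ± 0.41 in C1, 15.23 ± 0.27 in V1, 15.01 ± 0.29 in V2 and 13.82 ± 1.9995 in V3 (SD, n = 4). No neighbours in this order passed the test. C1 and V1 differed by 0.01, and the 4 arrays of C1 spanned those of V1 and V2. Without replicate 4, V3 was at 14.81 ± 0.29 (SD, n = 3).

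**Figure D1:**
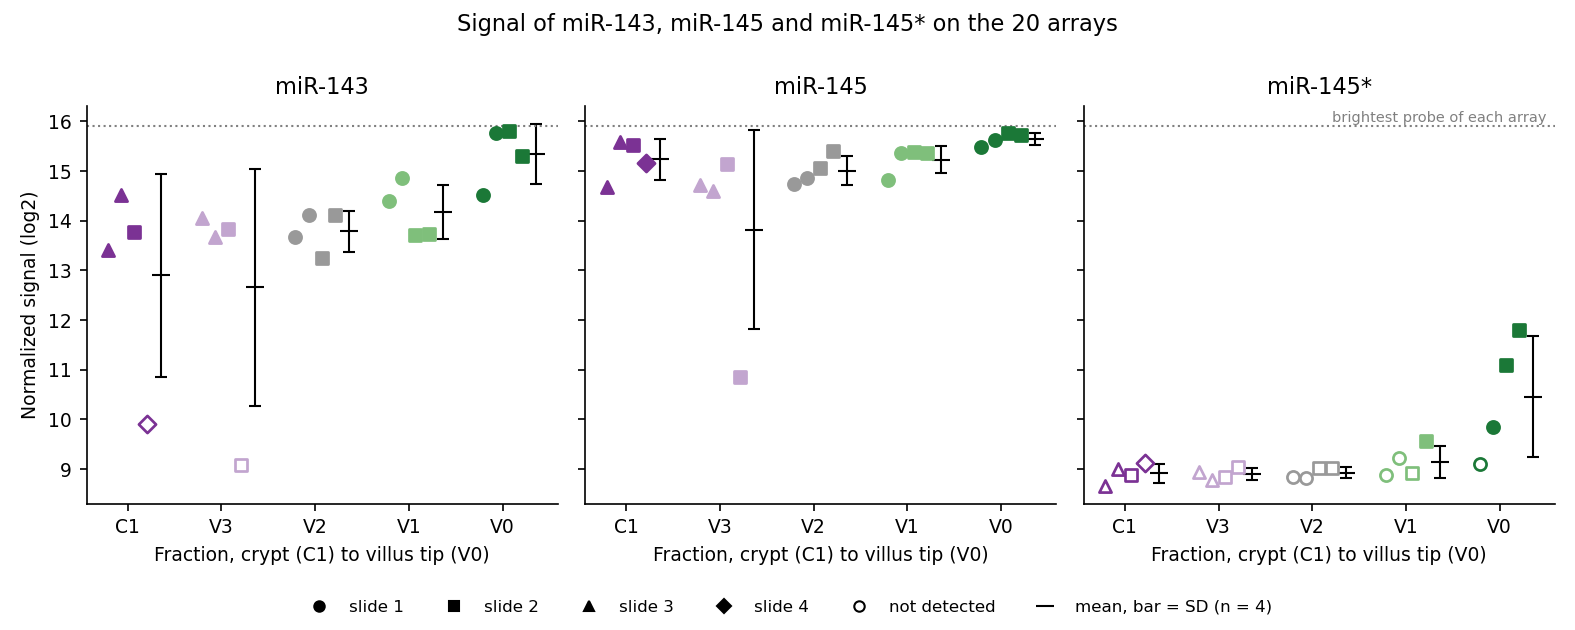
Normalized signal on the log2 scale (vertical axis) of miR-143, miR-145 and miR-145* on each of the 20 arrays, by fraction from C1 to V0. Marker shape gives the slide, open markers are not detected, and the black bars are mean and SD (n = 4). V0 has the highest mean in each panel, V3 replicate 4 is low for both members (9.09 and 10.84), and miR-145* is detected on 4 arrays.

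The other strand of miR-145 was seen mainly at the villus tip. miR-145* was detected on V0 replicates 2, 3 and 4, at log2 signals of 9.84, 11.09 and 11.80, and on V1 replicate 4, at 9.57. It was not detected on V0 replicate 1, at 9.11, nor on any array of C1, V2 or V3. Since no fraction detected it on all 4 arrays, it was not tested. Where a fraction detects a probe on no array, its level there has only an upper bound, taken per array as the higher of the lowest signal among detected probes and the probe's own signal. Against this bound the V0 mean of miR-145* was 1.80-fold higher than in C1, 2.06-fold higher than in V2 and 2.09-fold higher than in V3. That mean took V0 replicate 1 at its own signal although it was not detected there, so these folds are not strict lower limits. On the measured log2 signal V0 exceeded V2 by 0.65 on slide 1 and by 2.42 on slide 2. The measured means were 10.46 in V0 and 8.91 in C1.

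The first comparison asks whether the members differ between the tip of the villus and the crypt. miR-143 was 2.45 higher in V0 than in C1 on the log2 scale (SE 0.99, 95% interval 0.35 to 4.54), with an adjusted p of 0.232 and an unadjusted p of 0.0246 in the limma fit over all probes, so it did not pass. Probes were called where the adjusted p did not exceed 0.05 and the change reached 2-fold, and 0.623% of the 321 probes tested for V0 against C1 were called. The 4 arrays of V0 and C1 touched at the tied value. miR-145 was 0.41 higher (SE 0.64, 95% interval -0.94 to 1.75), with an adjusted p of 0.700, and its arrays overlapped. The median difference of all probes tested was -0.035.

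V0 was also set against the fractions between. For miR-143, V0 exceeded V1 by 1.17 (95% interval -0.92 to 3.26, limma adjusted p 0.9996) and V2 by 1.56 (95% interval -0.54 to 3.65, adjusted p 0.998). V0 exceeded V3 by 2.68 (95% interval 0.59 to 4.78), with an adjusted p of 0.323. For miR-145 the same differences were 0.41 from V1, 0.64 from V2 and 1.82 from V3, with the last at an adjusted p of 0.323. In these 3 comparisons 0% of probes were called, while 13, 19 and 28 had an unadjusted p under 0.05. Neither member passed the exact rank-sum test, but that test cannot decide. With so few arrays in each fraction, its smallest possible p passes the adjustment only if most of the probes tested reach it. V0 was higher without overlap for miR-143 against V2 and V3 and for miR-145 against V1, V2 and V3. Over all probes tested, V0 was higher without overlap for 2.25% against V1, 3.32% against V2 and 3.74% against V3. These comparisons share the V0 arrays.

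Below the tip no difference from the crypt passed. miR-143 was 1.28 higher in V1 than in C1 (95% interval -0.82 to 3.37, limma adjusted p 0.360) and 0.89 higher in V2 (95% interval -1.20 to 2.98, adjusted p 0.555). V3 minus C1 was -0.23 and was not tested, because neither fraction detected miR-143 on all arrays. It was 0.96 without V3 replicate 4 and -1.23 without C1 replicate 4, so its sign rested on those arrays. miR-145 differed from C1 by -0.01 in V1 (95% interval -1.35 to 1.34), by -0.23 in V2 (95% interval -1.57 to 1.12) and by -1.42 in V3 (95% interval -2.76 to -0.07, adjusted p 0.493). Without V3 replicate 4 and C1 replicate 4 that last difference was -0.45 (adjusted p 0.331). The share of probes called was 0.578% for V1, 0.645% for V2 and 0.361% for V3 against C1. V1 exceeded V3 by 1.51 for miR-143 and 1.41 for miR-145, both at an adjusted p of 0.665, and the differences V1 minus V2 (0.38 and 0.22) and V2 minus V3 (1.13 and 1.19) did not pass either. Without the same 2 arrays V1 minus V3 was 0.32 and 0.42, and V2 minus V3 was -0.065 and 0.20. In V1 minus V2, V1 minus V3 and V2 minus V3, 0% of probes were called, with 1, 10 and 3 probes at an unadjusted p under 0.05.

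A straight line over the 5 fractions, from C1 to V0, had a slope of 0.64 per step for miR-143 (SE 0.21, 95% interval 0.20 to 1.08), with a limma adjusted p of 0.131. Without V3 replicate 4 and C1 replicate 4 it was 0.34 per step (adjusted p 0.154). The slope for miR-145 was 0.22 per step (95% interval -0.10 to 0.55, adjusted p 0.302), and 0.13 without the 2 arrays (adjusted p 0.341). In this test 0.521% of 384 probes passed. The F test over the 5 fractions gave 2.36 for each member, at an adjusted p of 0.525, and 0.26% of probes passed it. Without V0 replicate 1, the V0 array with the fewest detected probes, the slope of miR-143 was 0.67 per step and had an adjusted p of 0.0495, in a fit where 16.9% of 415 probes passed, while over the same 384 probes as before its adjusted p was 0.0528.

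Without V3 replicate 4 and C1 replicate 4, miR-143 was called higher in V0 than in C1, by 1.45 (SE 0.37, limma adjusted p 0.0476), where 2.63% of 342 probes were called, and higher in V0 than in V2, by 1.56 (SE 0.34, adjusted p 0.0431), where 1.51% were called. V0 exceeded V3 by 1.49 (adjusted p 0.072) and V1 by 1.17 (adjusted p 0.287). The difference from C1 and its standard error were both smaller than with all arrays. The 2 arrays were left out after miR-143 was seen to be low on them, so these calls are no independent support. Neither array belongs to V0 or V2, so the difference between those fractions was unchanged, and its call came with the smaller estimate of spread. V1, V2 and V3 then differed from C1 by 0.28, -0.11 and -0.04. Leaving out only V3 replicate 4 gave 2.45 for V0 minus C1 (adjusted p 0.0583), and leaving out only C1 replicate 4 gave 1.45 (adjusted p 0.505). miR-145 was not called in any of these, with 0.38 for V0 minus C1 (adjusted p 0.378) and 0.83 for V0 minus V3 (adjusted p 0.128).

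**Figure D2:**
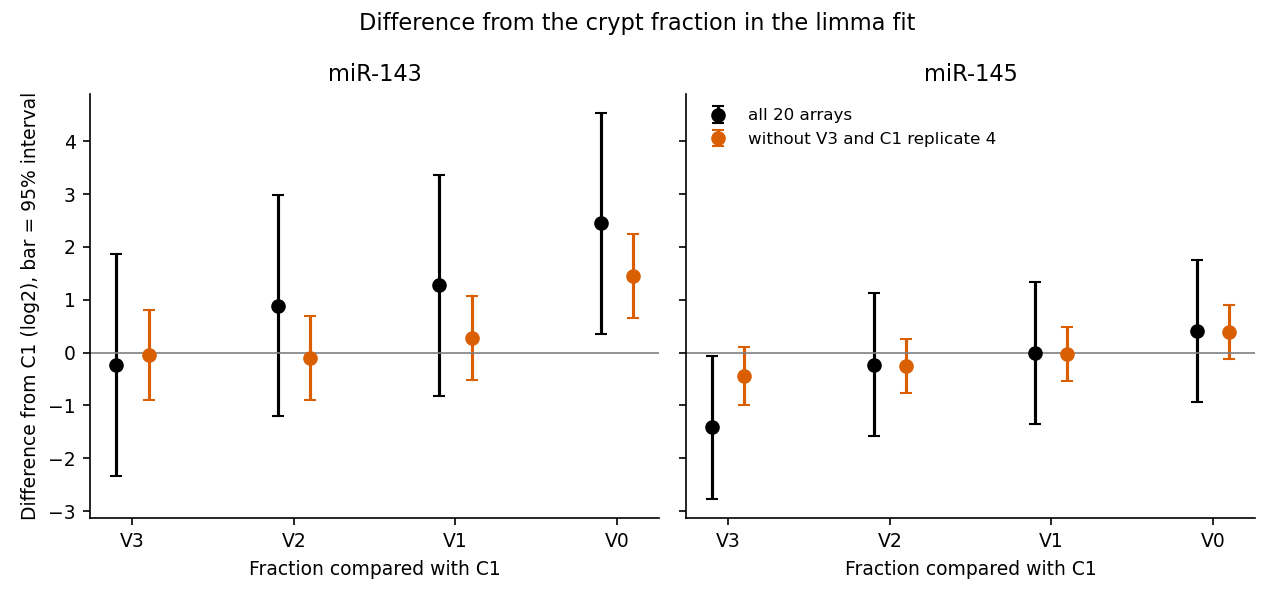
Difference in log2 signal from C1 (vertical axis) of V3, V2, V1 and V0 for miR-143 and miR-145, with 95% intervals of the limma fit. Black points use all 20 arrays and orange points leave out V3 replicate 4 and C1 replicate 4. For miR-143 the V0 difference is 2.45 with all arrays and 1.45 without the 2, and the intervals are narrower without them.

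Within a slide the direction of V0 against the middle of the villus held. miR-143 was higher in V0 than in V1 by 0.52 on slide 1 and by 1.82 on slide 2, and higher than in V2 by 1.25 and 1.86, each from 2 arrays against 2. For miR-145 V0 exceeded V1 by 0.46 on slide 1 and 0.37 on slide 2, and V2 by 0.75 and 0.52. On slide 2, the only one with all fractions, the single C1 array lay 1.77 below the mean of the 2 V0 arrays for miR-143 and 0.23 below it for miR-145. V1 and V2 differed from that C1 array by -0.049 and -0.088 for miR-143. V3 minus C1 was -2.32 for miR-143 and -2.53 for miR-145 on slide 2, which holds V3 replicate 4, and -0.092 and -0.48 on slide 3.

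Set against the 8 epithelial probes of the same array, miR-143 had its highest mean in V0. The sign of such a gap has no meaning, since probes differ in brightness, and only its change between fractions is compared. The gap, miR-143 minus the epithelial mean on the log2 scale, was 0.32 ± 0.69 in V0, -0.76 ± 0.42 in V1, -1.15 ± 0.32 in V2, -1.92 ± 1.57 in V3 and -1.07 ± 0.95 in C1 (SD, n = 4). Between V0 and C1 the gap differed by 1.39 (two-sided exact permutation test, p = 0.0857, adjusted over 8 comparisons 0.305). The smallest p that 4 arrays against 4 can give is 0.0286. In V0 replicate 1 the gap was -0.68, within the values of the lower fractions. The epithelial mean itself was 15.03 ± 0.18 in V0, 14.94 ± 0.47 in V1, 14.94 ± 0.48 in V2, 14.58 ± 0.86 in V3 and 13.97 ± 1.14 in C1, and its part in the result was not tested. Some reference probes were at the top of the scale, miR-200b at 15.91 on every V1 array and miR-215 between 15.90 and 15.91 in V0, which limits how far the mean can rise.

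The gap of miR-145 ran otherwise. It was 0.62 ± 0.25 in V0, 0.29 ± 0.65 in V1, 0.07 ± 0.65 in V2, -0.76 ± 1.25 in V3 and 1.27 ± 1.16 in C1 (SD, n = 4). V0 was 0.65 below C1 (two-sided exact permutation test, p = 0.371, adjusted 0.594), and V3 was 2.03 below C1 (exact p = 0.0571, adjusted 0.305), or 0.91 below it without V3 replicate 4 and C1 replicate 4 (exact p = 0.200). Without V3 replicate 4 and C1 replicate 4 the V0 minus C1 gap was 0.95 for miR-143 (exact p = 0.114) and -0.12 for miR-145 (exact p = 0.743). In a bulk sample, fewer cells that hold a miRNA and less of it per cell cannot be told apart, and this holds for every value here.

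Within an array, miR-143 minus miR-145 had its highest mean in V0. As for the gaps, its sign has no meaning, and only its change between fractions is compared. The difference miR-143 minus miR-145 within an array, added after seeing the data, was -0.97, 0.15, 0.03 and -0.42 in V0, and -1.28, -1.07, -1.74 and -5.27 in C1. These did not overlap. In V1 it was -0.43, -0.51, -1.67 and -1.62, with the first 2 on slide 1 and the others on slide 2. The mean was -0.30 in V0, -1.06 in V1, -1.22 in V2, -1.16 in V3 and -2.34 in C1. V0 exceeded C1 by 2.04 (two-sided exact permutation test, p = 0.0286, the smallest 4 arrays against 4 can give, adjusted over 4 comparisons 0.114). Without C1 replicate 4 it exceeded C1 by 1.06 (exact p = 0.0571, adjusted 0.229). With only this comparison at the smallest p, its adjusted p could not be below 0.114, so failing the correction does not decide. All 4 arrays of V0 lay above all 4 of C1, but how often other pairs of probes do so was not counted. The closeness of miR-145 to the top of the scale, given above, bears on this difference. So does that of miR-143 in V0, at 15.77 and 15.80 in replicates 2 and 3. The part of this limit was not tested.

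**Figure D3:**
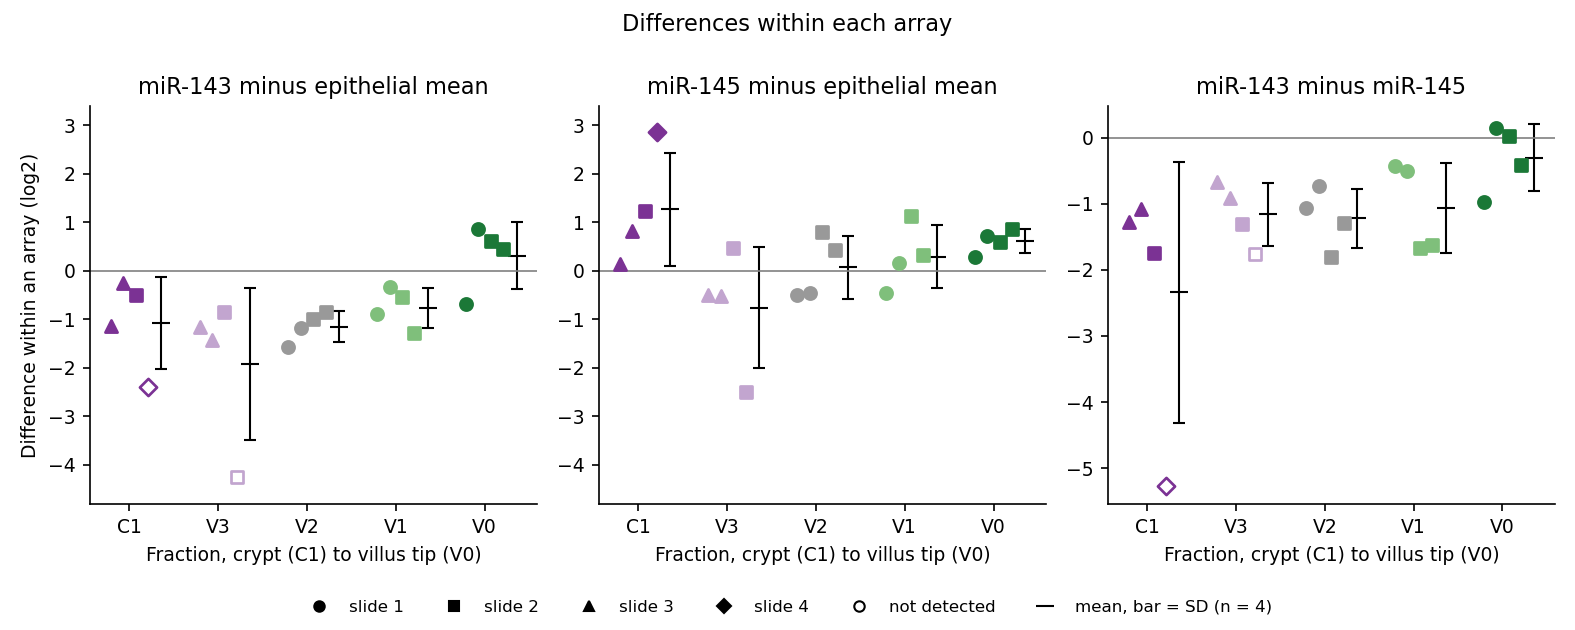
Differences in log2 signal within each array (vertical axis) by fraction, for miR-143 and miR-145 minus the mean of the 8 epithelial probes and for miR-143 minus miR-145. Marker shape gives the slide, and black bars are mean and SD (n = 4). Open markers are arrays where the probe of the panel, or miR-143 in the right panel, is not detected, and the middle panel has none. Of the 4 V0 arrays, 3 lie above all other arrays in the left panel, and the right panel shows C1 replicate 4 at -5.27.

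Over the 20 arrays miR-143 and miR-145 had a Pearson correlation of 0.74 and a Spearman correlation of 0.71. Without the 2 arrays farthest from the median of miR-143, again V3 replicate 4 and C1 replicate 4, they were 0.65 and 0.70. With each fraction's mean subtracted, the Pearson value was 0.74 over all arrays and 0.31 without those 2. These are descriptions, since the arrays share mice, slides and fractions. miR-143 had a Pearson correlation of 0.72 with the number of detected probes, which was 0.37 without the 2 arrays, and miR-145 had 0.49 and 0.04. miR-145* had 0.40 with miR-143 and 0.29 with miR-145, which were 0.74 and 0.64 without the 2 arrays. It was detected on only 4 of the 20 arrays, so most of its values there were below detection.

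**Figure D4:**
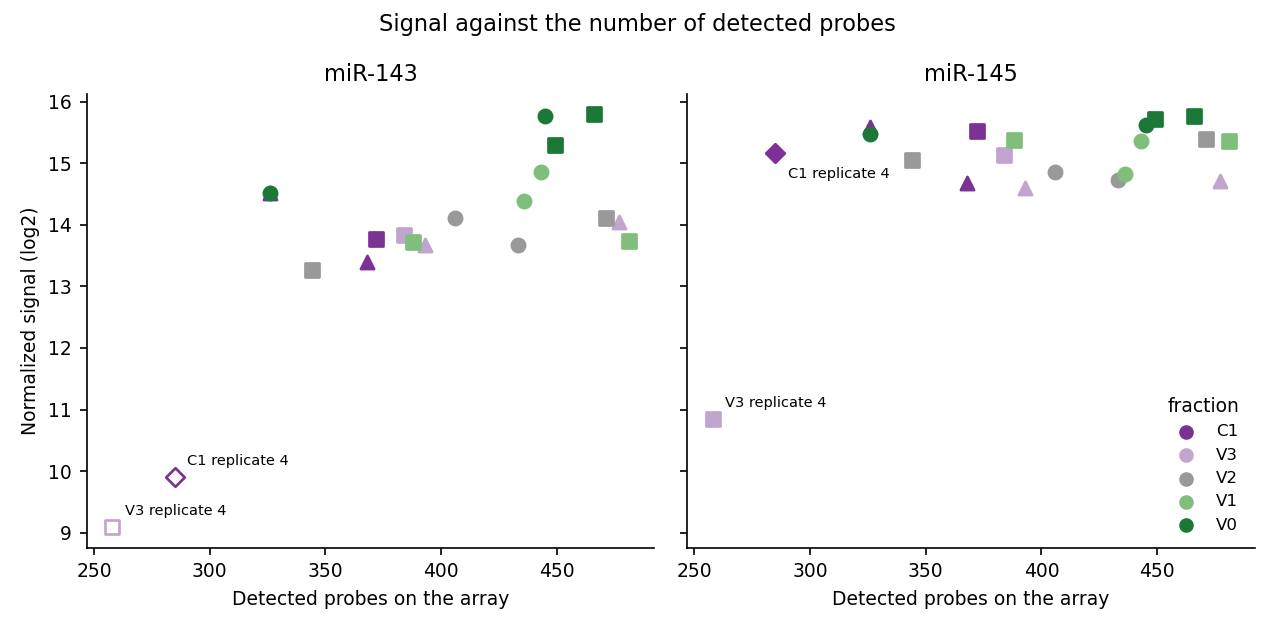
Normalized log2 signal of miR-143 and miR-145 (vertical axis) against the number of detected probes of the same array out of 655 (horizontal axis), coloured by fraction. Marker shapes are the slides of the plot of signal by array, and open markers are not detected. V3 replicate 4, with 258 detected probes, is low in both panels, and C1 replicate 4, with 285, is low for miR-143 only.

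Of the 383 other probes in the trend test, those most like miR-143 by Pearson correlation over the 20 arrays were miR-150 (0.92), miR-30c (0.91), miR-146a (0.90), miR-15b (0.90) and miR-125b-5p (0.90), and miR-468 was least like it (-0.91). miR-150 and miR-146a are known from lymphocytes and the immune response. miR-145 was the 34th. With the mean of the 8 epithelial probes miR-143 had a Pearson correlation of 0.83, or 0.39 without V3 replicate 4 and C1 replicate 4. For miR-145 these were 0.37 and -0.21. Those most like miR-145 were miR-26a (0.92), miR-192 (0.91), a pair of probes with solexa names (0.89 and 0.87) and let-7d (0.85), the least like was miR-204 (-0.86), and miR-143 was the 8th. The solexa names stand for candidate small RNAs of the array design, and miR-192 is among the epithelial reference probes. The lists rest on the low arrays. Without V3 replicate 4 and C1 replicate 4 the probes most like miR-143 were miR-100 (0.84), miR-125b-5p (0.79), miR-126-5p (0.77), miR-486 (0.74) and miR-411 (0.69), with miR-145 the 9th at 0.65. For miR-145 they were then miR-30c (0.79), miR-434-3p (0.70), miR-143 (0.65), miR-133a (0.64) and miR-100 (0.58).

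miRNAs that mark other cells an epithelial preparation could hold were looked at in V0 against C1, where the median of all tested probes was -0.04. Of 31 such miRNAs measured, 20 were tested and 0 were called by limma, while 4 had an unadjusted limma p under 0.05, as did 55 of all 321 probes tested. The exact rank-sum test called 0 of them, but it cannot decide, for the reason given above. Of the fibroblast and stromal list, 5 of 7 miRNAs were measured, 3 tested, and the median difference was 1.43. Medians of lists include miRNAs that neither fraction detected. With those left out and a miRNA detected in 1 fraction only at its bound, it was 1.68, given below as the median with bounds. miR-199b*, the other strand of miR-199b, was 2.52 higher in V0 (limma adjusted p 0.0771), miR-214, made from the same transcript as miR-199a in fibroblasts, was 1.93 higher (adjusted p 0.277), and miR-199a-5p was 0.33 lower (adjusted p 0.826). miR-199b* was named here after its values were seen, as the only listed probe called without V3 replicate 4 and C1 replicate 4, at 2.79 from C1 (adjusted p 0.0476) and 3.16 from V2 (adjusted p 0.0431). The summed normalized signal of the 5 stromal probes ranged from 18848 to 45985 units in V0 and from 7722 to 47877 units in C1.

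Of the striated muscle list, 7 of 8 were measured and 3 tested, with a median of 0.01, or -0.53 with bounds. miR-133a, which acts in the differentiation of skeletal and heart muscle, had log2 signals of 13.03 ± 0.53 in V0 and 10.51 ± 0.98 in C1 (SD, n = 4). The difference was 2.52 (limma adjusted p 0.137) with no overlap, where 4.67% of all probes tested were higher in V0 without overlap. The next brightest of the list, miR-208a and miR-208b, each differed by -0.53. miR-208a was not tested, and miR-208b had a limma adjusted p of 0.415. miR-133b was 1.22 higher (adjusted p 0.207). The partner of miR-133a, miR-1, the defining miRNA of striated muscle, is named although it was not among the 3 brightest. It was detected on no V0 array and on 1 C1 array. The summed signal of the list was 9654 to 18950 units in V0 and 5636 to 15962 units in C1.

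The endothelial pair miR-126-3p and miR-126-5p was 0.83 and 1.16 higher (limma adjusted p 0.397 and 0.388), with a summed signal of 6900 to 48686 units in V0 and 4193 to 25711 units in C1. All 6 leukocyte miRNAs were measured and 5 tested, with a median of 1.26 and sums of 98480 to 152006 units in V0 and 15013 to 101554 in C1. Of the red cell list, miR-486 was 3.05 higher (adjusted p 0.0996) and miR-451 1.89 higher (adjusted p 0.277), while miR-144, cut from the same transcript as miR-451, was detected on no array of either fraction. The sums were 12976 to 24646 units in V0 and 2395 to 7576 in C1, and the median was 1.89, or 2.47 with bounds. The neuronal list had a median of 0.43, or -0.25 with bounds, with 2 of 5 measured miRNAs tested, and the secretory list 0.57 with 3 of 3 tested. The part of these cells in the values of miR-143 was not tested.

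Of the 8 epithelial probes, 7 had mean signals in V0 above those in C1, and none was called. The 5 miRNAs of the miR-200 family had a median V0 minus C1 of 1.78, and miR-192, miR-194 and miR-215 one of 0.23. Without V3 replicate 4 and C1 replicate 4 the medians were 0.49 and 0.21, that of the stromal list 1.002, and that of the red cell list 2.03. They were then 0.97 for the endothelial pair, 0.87 for leukocytes, 0.096 for striated muscle, 0.34 for neurons and 0.30 for the secretory list. Over all probes tested without the 2 arrays the median was -0.19. From V1 to V0, which no low array enters, the medians were -0.01 for the miR-200 family, 0.01 for the miR-192 group, 1.16 for the stromal list, 0.76 for the endothelial pair, 0.24 for leukocytes, 1.15 for red cells, 0.03 for striated muscle, 0.17 for neurons and -0.14 for the secretory list, against 0.05 over all probes tested. In V0 against V1, 31 listed miRNAs, epithelial ones included, were tested and 0 were called by limma, while 5 had an unadjusted limma p under 0.05, as did 13 of all 356 probes tested. The exact rank-sum test called 0 of them, but again it cannot decide.

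**Figure D5:**
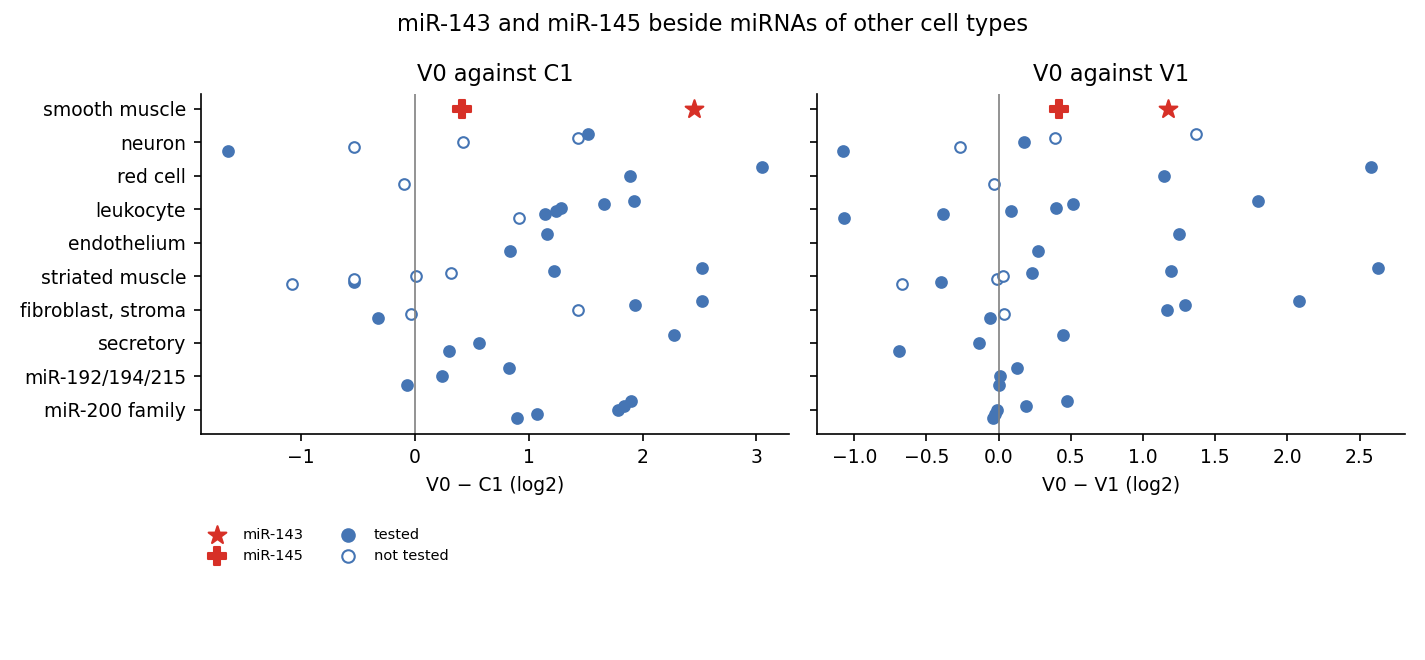
Difference in log2 signal (horizontal axis) of V0 from C1 (left) and of V0 from V1 (right) for each measured miRNA of the lists of cell types (rows), with miR-143 as a red star and miR-145 as a red cross. Filled points were tested and open points were not. miR-143 stands at 2.45 and 1.17, and miR-145 at 0.41 in both panels.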

How the data were processed

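The authors hybridised RNA of the 5 fractions to Illumina Universal MicroRNA bead arrays, read them on the iScan and processed them with Genome Studio. The deposited intensity is a mean over the beads of a probe, given raw and quantile-normalized across arrays, with no background subtraction. The deposited detection p-value of each probe and array comes from that software. The deposited value table equals the normalized one (largest difference 0). The array annotation gives chromosomes, and no build is named for it.

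The log2 of the normalized intensity of 655 probes went into limma 3.58.1 (R 4.3.3), with lmFit and eBayes on 1 mean per fraction over 20 arrays, tested on simulated data. Benjamini-Hochberg adjustment covered probes that all 4 arrays of a compared fraction detected (p up to 0.01), or all 4 of any fraction for the trend and F test. Calls took an adjusted p up to 0.05 and, except for the trend and F test, 2-fold. Gaps were compared by exact permutation of arrays. Named probes were the members, miR-145*, the 3 brightest of each list and the 5 most and 1 least like each member. The members and lists were chosen with earlier results of these data known. Alternatives were normalization, detection filter, slide, test, spread model and arrays left out.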

Additional observations from a re-analysis of the deposited data

Results flagged for a closer look

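In V3, replicate 4 stood far below the other 3 arrays for miR-143 (9.09 on the log2 scale) and for miR-145 (10.84). In V1, replicate 1 was the low array for miR-145, at 14.82, though only 0.54 below its nearest neighbour. Among the V0 arrays, replicate 1 had 326 detected probes against 445 or more on the others. These arrays were singled out by the gap to the nearest array divided by the range of the fraction, against Dixon's 95% critical value for 4 arrays, in 35 groups of which 4 were singled out, and chance alone singles out about 5% of groups. miR-145*, which entered no test, was detected on 3 of 4 V0 arrays and on 0 of 4 C1 arrays.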

How the results depend on the processing

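No paired analysis was possible because no label ties arrays to a mouse. Of 380 values of 36 results under other settings, 360 kept their direction and their side of the threshold, 18 changed sign and 2 came to pass. A change of test, detection filter or spread model alone cannot turn a sign, so this count is no measure of stability. Leaving out V3 replicate 4 and C1 replicate 4, miR-143 passed for V0 minus C1 (1.45) and V0 minus V2 (1.56). Those arrays were picked after miR-143 was seen to be low on them, so its passing there is no independent support. Without them the sign of miR-143 turned for V2 minus C1 (-0.11), V2 minus V3 (-0.065) and the gap to the epithelial mean in V1 minus C1 (-0.13). For miR-145 V1 minus C1 became 0.53 with no normalization, 0.68 with slide as a fixed block and 0.21 as a random block, V2 minus C1 became 0.46 with the fixed block, and V0 minus C1 became -0.31 with median centring and -0.35 with the count of detected probes added as a covariate. That covariate gave -0.42 for V1 minus C1, -0.41 for V2 minus C1, -0.018 for V1 minus V2 and 1.01 for V0 minus C1 of miR-143, the lowest value of the last under any setting (adjusted p 0.791, with 0.0476 to 0.851 over all settings). On slide 2 alone miR-143 was at -0.049 for V1 minus C1 and -0.088 for V2 minus C1, and its gap at -0.41 for V1 minus C1. With the miR-200 family alone as reference that gap was -0.10, and with miR-192, miR-194 and miR-215 alone the gap was 0.65 for miR-143 in V2 minus C1 and 0.079 for miR-145 in V0 minus C1. The cause of these changes was not tested. Of 1200 values with 1 array left out, 20 had another sign and 1 came to pass. Many of the 1200 could not change, since the array left out was in neither fraction compared. Each limma value was also counted 2 times, with the filter made anew and with the probes kept. This count therefore does not measure stability either. The range was 0.49 to 0.76 for the trend of miR-143 (passing without V0 replicate 1 unless the probes tested are kept, and 0.34 without the 2 low arrays), 1.45 to 2.99 for V0 minus C1 and 1.38 to 1.83 for V0 minus V2 of miR-143, -0.19 to 0.13 for V1 minus C1 of miR-145 (0.13 without V1 replicate 1, 0.11 without C1 replicate 2 and 0.086 without C1 replicate 3), -0.065 to 1.59 for V2 minus V3 -0.11 to 1.43 for V2 minus C1 and -1.23 to 0.96 for the untested V3 minus C1 of miR-143, and -0.52 to 0.20 and -0.13 to 0.58 for its gap in V2 and V1 minus C1. The 2 probes called in V0 against C1 became 14 with no normalization (where the median over tested probes went from -0.035 to 0.95), 4 with median centring, 6 with the slide as a fixed block, 5 with only the fractions compared, 9 without the 2 low arrays, 1 with detection on all arrays of both fractions and 0 by the exact rank-sum test. The rank-sum test could hardly call any probe with so few arrays. Detection on all arrays of both fractions left 8 values of miR-143 without a test. Signals near the top of the scale limit what miR-145, and miR-143 in V0, can show.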
